A study of Homo sapiens with 66 samples.

Results

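These are 399 regions of the human genome at which HIF-2α, and not HIF-1α, was called in hypoxic HKC8 kidney tubule cells, and which hold an AP-1 motif close to their centre. They were chosen by the peak lists of 4 libraries of wild-type HKC8 cells kept at 0.5% oxygen for 16 h. A peak had to be called in both HIF-2α replicates, with the overlapping peaks merged into a site, and no peak of either HIF-1α replicate could touch the site. Of the 3802 sites called in both HIF-2α replicates, 2367 met this and are called HIF-2-only below, and 399 of those (16.9%) had the AP-1 heptamer TGACTCA or TGAGTCA within 100 bp of the site centre on GRCh37. The 2 spellings are reverse complements, so the search covered both strands. All 7 bases had to lie within the 100 bp, so the middle of a heptamer was at most 97 bp from the site centre. The other 1968 HIF-2-only sites comprised 810 with a hypoxia response element (HRE) core and no AP-1 heptamer, and 1158 with neither. The HIF-2α peaks and the lack of HIF-1α peaks in those 4 libraries, and the AP-1 heptamer, are therefore what the sites were selected on and not results.

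The sites were then followed through the 46 other chromatin immunoprecipitation sequencing libraries, which fall into 23 groups of 2. They used antibodies to HIF-1α, HIF-2α or HIF-1β in HKC8 cells at 3% oxygen for 6 h or at 0.5% for 6, 16 or 48 h, in wild-type HKC8 cells and HKC8 cells lacking HIF-1α (HIF-1aKO) or HIF-2α (HIF-2aKO) at 0.5% for 16 h, in HepG2 hepatocellular cancer cells at 0.5% for 16 h, and in RCC4 kidney cancer cells in normoxia. Each knockout is a single CRISPR-Cas9 clone, and RCC4 lacks the VHL protein that marks HIF-α for destruction in air. Nothing in the labels says that replicates came from separate cultures beyond their numbers. The study describes its duplicates as independent ChIP-seq experiments and does not say whether the cultures were separate. The p-values therefore measure the spread between these libraries, which may be technical. The number of peaks per library was lowest for the severity and duration series (237 to 1790), and ran from 912 to 8268 for the knockout series and from 908 to 6843 for the RCC4 and HepG2 cells. Read depth cannot be recovered from the lists, and a site without a call may lie just under the caller's limit.

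HIF is a dimer of an oxygen-regulated α subunit, HIF-1α or HIF-2α, with HIF-1β. Both dimers read the same HRE core, but HIF-1 is known for sites near promoters and HIF-2 for distal, enhancer-like sites. AP-1 is a family of dimers of JUN, FOS and related basic leucine zipper proteins that bind the heptamer at enhancers in many cell types and respond to growth factors and stress.

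The sequence of a 201 bp window around the centre shows what the sites look like. Each is given 5′ to 3′ on the plus strand of GRCh37, named by the nearest protein-coding transcription start site (TSS), which need not be its target, with AP-1 heptamers and HRE cores (ACGTG or GCGTG on either strand) in capitals and all other bases in lower case. Shown first are the 5 sites that ranked highest by peak score, averaged over both WT HIF-2α lists, since these are the strongest calls behind the choice.
ROBO2 (chr3:76546921-76547121): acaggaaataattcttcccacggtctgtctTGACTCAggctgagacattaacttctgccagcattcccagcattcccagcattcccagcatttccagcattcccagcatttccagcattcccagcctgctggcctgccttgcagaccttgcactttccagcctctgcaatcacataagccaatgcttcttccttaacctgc
LSAMP (chr3:117267071-117267271): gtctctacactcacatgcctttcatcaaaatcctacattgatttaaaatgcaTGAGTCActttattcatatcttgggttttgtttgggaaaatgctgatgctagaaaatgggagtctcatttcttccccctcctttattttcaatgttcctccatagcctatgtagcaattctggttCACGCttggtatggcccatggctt
MAP2K6 (chr17:67758254-67758454): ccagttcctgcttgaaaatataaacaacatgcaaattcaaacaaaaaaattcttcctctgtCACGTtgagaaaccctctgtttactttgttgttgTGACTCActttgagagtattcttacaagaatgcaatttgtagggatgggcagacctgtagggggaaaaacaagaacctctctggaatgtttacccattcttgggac
SHISAL1 (chr22:44756758-44756958): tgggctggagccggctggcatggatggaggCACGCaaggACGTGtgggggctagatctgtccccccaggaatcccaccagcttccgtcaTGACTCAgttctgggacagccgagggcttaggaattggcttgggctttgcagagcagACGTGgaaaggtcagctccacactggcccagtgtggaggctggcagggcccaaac
PISD (chr22:32042565-32042765): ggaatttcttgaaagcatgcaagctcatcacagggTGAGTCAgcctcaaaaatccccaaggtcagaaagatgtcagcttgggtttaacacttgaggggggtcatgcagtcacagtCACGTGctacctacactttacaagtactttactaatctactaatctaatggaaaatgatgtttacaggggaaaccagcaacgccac

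The next 5 were called in the most of the 46 other libraries, 18 or more, and so show the sequence at the sites found most widely. ITGA3, described below, tied with the last 2 of them and is left out only for its lower WT rank.
APOH (chr17:64271836-64272036): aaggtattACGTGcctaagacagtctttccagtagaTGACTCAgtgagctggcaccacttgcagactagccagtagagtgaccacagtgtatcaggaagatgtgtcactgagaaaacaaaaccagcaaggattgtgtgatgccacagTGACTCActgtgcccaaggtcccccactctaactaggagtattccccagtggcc
CCN5 (chr20:43321726-43321926): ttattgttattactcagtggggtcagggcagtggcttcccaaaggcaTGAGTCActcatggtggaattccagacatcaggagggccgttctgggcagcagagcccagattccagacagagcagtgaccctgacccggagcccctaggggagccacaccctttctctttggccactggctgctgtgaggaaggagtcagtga
CRISPLD2 (chr16:84859971-84860171): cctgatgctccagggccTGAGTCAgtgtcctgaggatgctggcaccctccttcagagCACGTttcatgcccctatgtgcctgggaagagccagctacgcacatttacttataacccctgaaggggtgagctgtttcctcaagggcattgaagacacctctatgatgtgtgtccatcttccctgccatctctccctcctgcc
TXNDC5 (chr6:7975438-7975638): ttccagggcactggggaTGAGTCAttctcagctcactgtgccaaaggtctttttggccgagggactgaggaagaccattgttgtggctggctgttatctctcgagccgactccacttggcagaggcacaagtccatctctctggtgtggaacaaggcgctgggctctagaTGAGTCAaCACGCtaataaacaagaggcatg
PCBP3 (chr21:47295138-47295338): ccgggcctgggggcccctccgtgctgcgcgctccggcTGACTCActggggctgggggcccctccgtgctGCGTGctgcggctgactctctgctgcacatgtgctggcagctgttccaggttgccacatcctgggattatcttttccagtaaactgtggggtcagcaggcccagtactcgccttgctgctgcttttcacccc

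The last 2 have 3 heptamers in the window, the highest number among the 399 sites, and in both the heptamers recur in copies of a repeated stretch.
FSCB (chr14:44786203-44786403): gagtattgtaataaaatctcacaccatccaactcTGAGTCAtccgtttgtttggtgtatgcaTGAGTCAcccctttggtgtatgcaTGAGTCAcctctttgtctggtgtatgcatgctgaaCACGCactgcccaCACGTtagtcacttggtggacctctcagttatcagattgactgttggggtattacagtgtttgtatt
TMEM132C (chr12:128597856-128598056): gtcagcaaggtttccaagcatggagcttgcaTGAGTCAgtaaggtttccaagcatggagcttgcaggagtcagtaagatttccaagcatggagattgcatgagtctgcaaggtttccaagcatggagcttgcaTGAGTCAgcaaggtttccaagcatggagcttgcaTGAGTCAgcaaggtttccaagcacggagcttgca

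The position of the heptamer shows no single arrangement in these windows. It lay at the centre of the MAP2K6 and SHISAL1 sites, 2 and 8 bp before it, but 80 bp before it at CRISPLD2. Over the 399 sites the nearest heptamer was a median of 49 bp from the centre, within 25 bp in 114 sites (28.6%) and within 50 bp in 207 (51.9%). Most windows (354, 88.7%) held 1 heptamer, 41 held 2 and 4 held 3. At the limit of the search, the sites nearest to COPS8, ENSG00000284691 and LSAMP (a second LSAMP site, not the one printed above) had a heptamer centred 97 bp before the centre and were taken in. The sites nearest to KCNK3, TANGO6 and COL5A1, with a heptamer centred 98 or 99 bp from the centre, fell just outside, since not all its bases lay within 100 bp. The median site was 1032 bp wide, so the heptamer can lie well inside a peak and still be some distance from where the protein sits.

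AP-1 heptamers were about as frequent at sites that HIF-2α shared with HIF-1α as at HIF-2-only sites, with intervals that meet. They were found in 16.9% of HIF-2-only windows (95% Clopper-Pearson interval 15.4 to 18.4%), in 267 of the 1435 sites of HIF-2α that also had a WT HIF-1α peak (18.6%, interval 16.6 to 20.7%), and in 11 of the 142 HIF-1-only sites (7.75%, interval 3.93 to 13.4%). Windows of the same length placed 2 kb to either side of the HIF-2-only sites held one in 164 of 4734 cases (3.46%). These intervals, and those below, cover counting error only. In libraries that took no part in the choice, AP-1 was found at 8.89 to 17.8% of all peaks in the 8 HIF-2α libraries of the severity and duration experiment and at 3.69 to 6.84% in its 8 HIF-1α libraries, ranges that do not meet. In RCC4 it was found at 15.4 and 13.5% of HIF-2α peaks and at 10.0 and 9.07% of HIF-1α peaks. In the knockout experiment it was at 18.5 and 18.4% of HIF-2α peaks in HIF-1aKO cells. The HIF-1α libraries of HIF-2aKO cells had it at 13.7 and 11% of peaks. These are lower, but inside the range of the HIF-2α libraries of the severity and duration experiment. The WT lists, which made the choice, had it at 17.5 and 18.5% of HIF-2α peaks and at 16.3 and 14.8% of HIF-1α peaks. HIF-1α at the same oxygen and time in the severity and duration experiment had 6.18 and 6.84%, so the share also differed between experiments. In HepG2 the antibodies were not separated, with 6.44 and 6.72% under the HIF-1α label and 5.27 and 8.06% under the HIF-2α label. No test was made of these shares.

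**Figure D1:**
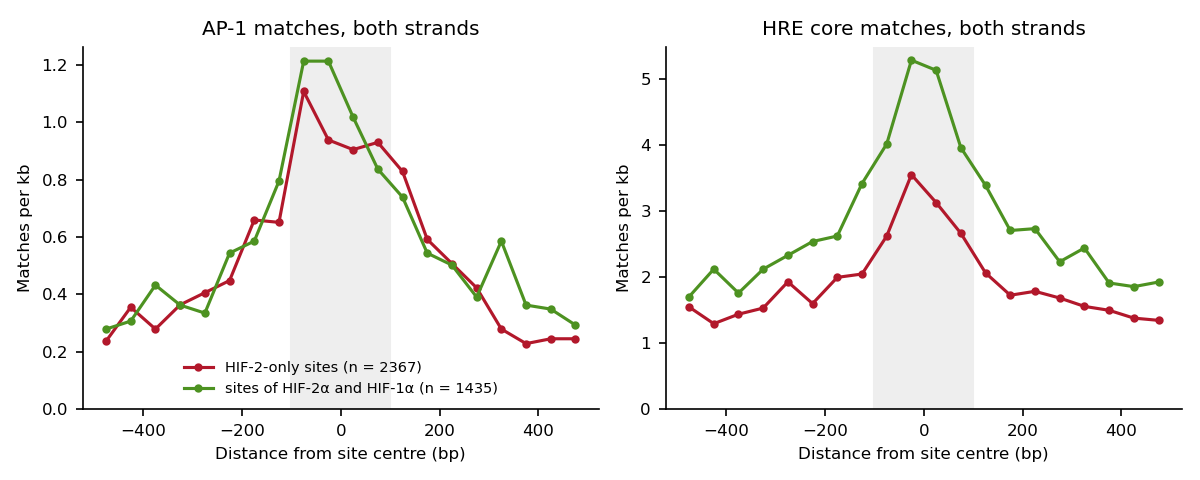
Matches per kb of the AP-1 heptamer (left) and the HRE core (right) in 50 bp bins, against distance from the site centre in bp, for the 2367 HIF-2-only sites (red) and the 1435 sites of HIF-2α and HIF-1α (green), with the search window shaded. AP-1 rose from 0.237 and 0.245 matches per kb in the outermost bins to at least 0.904 inside the window at HIF-2-only sites, and was similar at the shared sites. HRE cores reached 3.55 per kb at HIF-2-only and 5.28 per kb at shared sites.

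The bases beside the heptamer differed between the 399 sites and the 2 kb windows. Read in the orientation with G in the middle, the 448 heptamers of the sites were preceded by T in 10.0% and followed by A in 8.71%, while the 173 heptamers of the 2 kb windows were preceded by T in 24.9% and followed by A in 22.5%. The 9-base form with A before and T after, ATGAGTCAT, made up 39 of 448 (8.71%, interval 6.26 to 11.7%) against 5 of 173 (2.89%, interval 0.945 to 6.62%). At the sites of HIF-2α and HIF-1α it made up 25 of 301 (8.31%). The TXNDC5 window printed above shows the first of its heptamers in this form. The rule used only the 7 inner bases, so the outer ones were free to vary.

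HRE cores were also frequent, though the rule did not ask for one. A core lay in 192 of the 399 windows (48.1%, interval 43.1 to 53.1%), in 41.2% of the other HIF-2-only windows (interval 39.0 to 43.4%), in 57.0% of the sites shared with HIF-1α and in 20.3% of the 2 kb windows. The spelling ACGTG was in 30.6% of the 399 windows and 8.75% of the 2 kb windows, and GCGTG in 21.3% and 12.9%. So 207 of the 399 windows (51.9%) held AP-1 and no HRE core, as the ROBO2 and CCN5 windows do.

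In the 192 windows with both, the HRE core and the heptamer were separated by a median of 38 bp, with 15 pairs that shared 1 or 2 bases and a longest gap of 174 bp. An overlap scored as 2 bases was the most frequent spacing, in 12 of the 192 windows and in 11 of the 173 at shared sites. No other spacing was seen in more than 6 of the 192. Of the 37 control windows with both motifs, 2 had this overlap and 3 had any overlap, so it does not set the sites apart. At most 10 bp lay between them in 42 windows (21.9%). Among the 37 control windows with both, 12 (32.4%) were that close, and among the 173 shared HIF-2α and HIF-1α sites 34 (19.7%) were. In the TXNDC5 window 1 base separates them. In 3 of the 399 windows the heptamer TGACTCA ran on into CGTG, so its last base was also the first of an ACGTG core. None of the 1435 shared sites or the 2 kb windows held this spelling, but the same form with TGAGTCA was not counted separately. An overlap scored as 1 base was seen in 3 of the 192 windows and in 1 of the 37 control windows, so it does not set the sites apart either. Such a window reads CACGTG across the join, so it also holds a core that shares 2 bases with the heptamer. All 15 overlapping windows, and all 3 of the control windows, thus hold such a core. The HRE core was nearer to the centre than the heptamer in 98 of the 192 windows (51.0%, interval 43.7 to 58.3%).

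**Figure D2:**
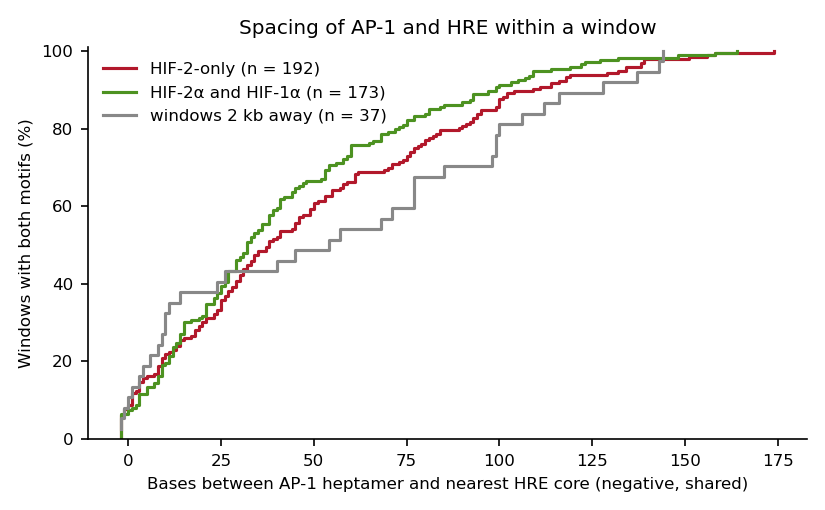
Cumulative share of windows (in %) against the number of bases between the AP-1 heptamer and the nearest HRE core, for windows with both motifs at the 399 HIF-2-only sites with AP-1 (red, n = 192), at sites of HIF-2α and HIF-1α with AP-1 (green, n = 173) and 2 kb away (grey, n = 37). All 3 curves start at an overlap of 2 bases, with 12 red, 11 green and 2 grey windows there, and at 10 bases they stand at 21.9% (red), 19.7% (green) and 32.4% (grey).

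Motifs of other factors were searched in the same windows. GGAATG, the core read by TEAD proteins, was in 23.8% of the 399 windows (interval 19.7 to 28.3%), 27.5% of the other HIF-2-only windows and 10.7% of the 2 kb windows. TGTGGT, read by RUNX proteins, was in 20.6% against 18.3% and 15%. The palindromic cyclic AMP response element was in none of the 399, in 9 of the 1968 others and in 5 of the 4734 windows at 2 kb. GGGCGG, read by SP proteins and common at promoters, was in 3.76% against 5.34% and 3.99%. All were searched on both strands, and a match says only that the letters are there.

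The 399 sites lay far from promoters. Their centres were a median of 47.4 kb from the nearest of 89204 protein-coding transcript starts, against 32.7 kb for the other HIF-2-only sites, 26.3 kb for the shared sites and 0.669 kb for HIF-1-only sites. Of the 399, 9 (2.26%, interval 1.04 to 4.24%) were within 1 kb of a start and 191 (47.9%) were more than 50 kb away, against 4.12% (interval 3.28 to 5.09%) and 39.6% of the other HIF-2-only sites. Of the shared sites 9.97% and of the HIF-1-only sites 53.5% were within 1 kb. Centres fell in introns of protein-coding genes in 184 cases, between genes in 206, in UTRs in 7 and in coding exons in 2. The median window held 47.3% G and C, the same as in the other HIF-2-only sites. The choice of HIF-2-only sites fixes part of the distance from promoters, since HIF-1α peaks, which lie nearer to starts, were taken out.

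**Figure D3:**
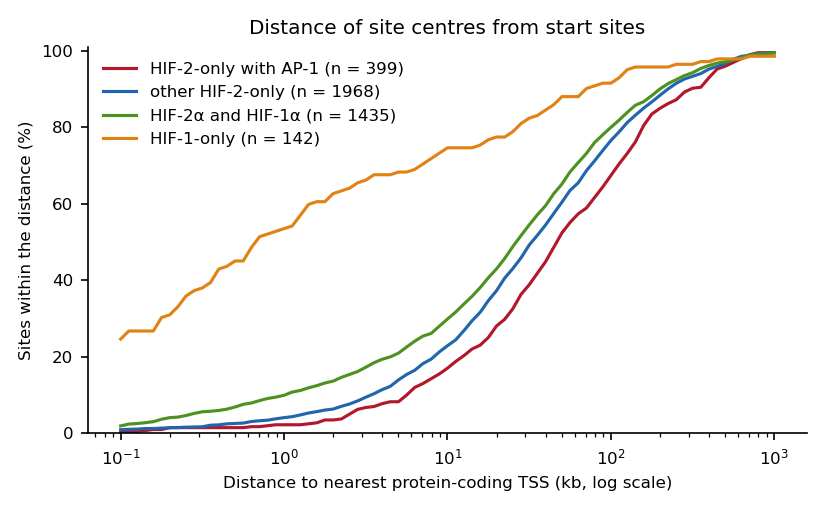
Cumulative share of sites (in %) against the distance of the centre from the nearest protein-coding TSS (kb, log scale), for the 399 HIF-2-only sites with AP-1 (red), the 1968 other HIF-2-only sites (blue), the 1435 sites of HIF-2α and HIF-1α (green) and the 142 HIF-1-only sites (orange). The red curve lies lowest over most of the range, with a median of 47.4 kb.

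The knockout experiment asked whether binding of 1 isoform depends on the other. HIF-2α was called at most of the sites in cells without HIF-1α. In HIF-1aKO cells, 67.9 and 74.4% of the 399 sites had a HIF-2α peak in replicates 1 and 2, and 244 (61.2%, interval 56.2 to 66.0%) had one in both. Of all 2367 HIF-2-only sites 59.7% did. In 75 sites (18.8%, interval 15.1 to 23%) neither HIF-1aKO replicate had a HIF-2α peak, against 23.5% of all HIF-2-only sites. Sites shifted by 10 kb overlapped a peak in 0 to 3.76% of cases over the 46 libraries, with a median of 0.251%.

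HIF-1β, the shared partner, was called in at least 1 WT library at 378 of the 399 sites (94.7%). The WT HIF-1β lists covered 79.9 and 90.7% of the 399 sites, and 303 (75.9%) were in both, against 76.1% of all HIF-2-only sites. There were 21 sites (5.26%, interval 3.29 to 7.93%; 6.68% of all HIF-2-only sites) with no WT HIF-1β peak. They ranked low in the WT HIF-2α lists, with a median rank of 77.6% of the list from the top, and 6 of the 21 (28.6%, interval 11.3 to 52.2%) had an HRE core, as did 153 of the 303 with HIF-1β in both replicates (50.5%, interval 44.7 to 56.3%).

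HIF-1β was called at fewer of the sites in cells without HIF-2α than in cells without HIF-1α. At the 399 sites it was called at 48.9 and 67.2% in HIF-1aKO cells and at 13.3 and 15% in HIF-2aKO cells. Both HIF-2aKO libraries thus lay below both HIF-1aKO libraries, with means of 14.2% ± 1.24 against 58.0% ± 12.9 (SD, n = 2) and a difference of -43.9 percentage points. With 2 libraries against 2, an exact permutation test cannot go below p = 0.333, which is the value found. In both HIF-1aKO libraries HIF-1β was called at 181 sites (45.4%; 44.3% of all HIF-2-only sites), and in both HIF-2aKO libraries at 26 (6.52%; 8.37% of all). At least 1 HIF-2aKO library had a HIF-1β peak at 87 sites (21.8%; 23.3% of all). The HIF-2aKO lists are shorter, with 2549 and 2082 HIF-1β peaks against 3375 and 5781, and with lists of equal length the difference was -15.2 points. The full pattern of HIF-1β in both WT and both HIF-1aKO libraries, HIF-2α in both HIF-1aKO libraries and no HIF-1β in either HIF-2aKO library was met by 95 sites (23.8%, interval 19.7 to 28.3%), against 23% of all HIF-2-only sites.

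HIF-1α was called at few of the sites in cells without HIF-2α. In HIF-2aKO cells the HIF-1α lists covered 5 and 0 of the 399 sites (1.25 and 0%), against 1.73 and 0.296% of all HIF-2-only sites. No site was in both replicates (0.127% of all HIF-2-only sites were). These lists had 1268 and 912 peaks, against 1910 and 1529 for HIF-1α in WT cells, and the part of list length was not tested. The study reports slightly less HIF-1α protein and binding in its HIF-2aKO clone, possibly from clonal variation. The series holds no HIF-2α library of HIF-2aKO cells and no HIF-1α library of HIF-1aKO cells, so the knockouts were not checked here.

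The sites with an HRE core were found by HIF-1β in HIF-2aKO cells more often than those without, in 18 of 192 (9.38%, interval 5.65 to 14.4%) against 8 of 207 (3.86%, interval 1.68 to 7.47%) for both replicates. Their intervals meet, and no test was made. For HIF-2α in both HIF-1aKO replicates the shares were 66.7% with an HRE core (interval 59.5 to 73.3%) and 56.0% without (interval 49.0 to 62.9%). The other HIF-2-only sites went the same way in replicates 1 and 2. HIF-1β in HIF-2aKO cells was called at 21.48 and 15.19% with a core, against 15.03 and 14.25% without. For HIF-2α in HIF-1aKO cells these shares were 66.42 and 72.84% against 61.40 and 70.38%. The direction therefore does not set the sites with AP-1 apart. Recovery also moved with the strength of the WT call. HIF-2α was in both HIF-1aKO replicates at 114 of the 133 sites ranked highest in the WT lists (85.7%), at 80 of the 133 ranked next (60.2%) and at 50 of the 133 ranked lowest (37.6%). All HIF-2-only sites, cut at the same ranks, gave 81.4, 54.3 and 35.5%. The ranks come from the lists that chose the sites, so this is a description only.

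**Figure D4:**
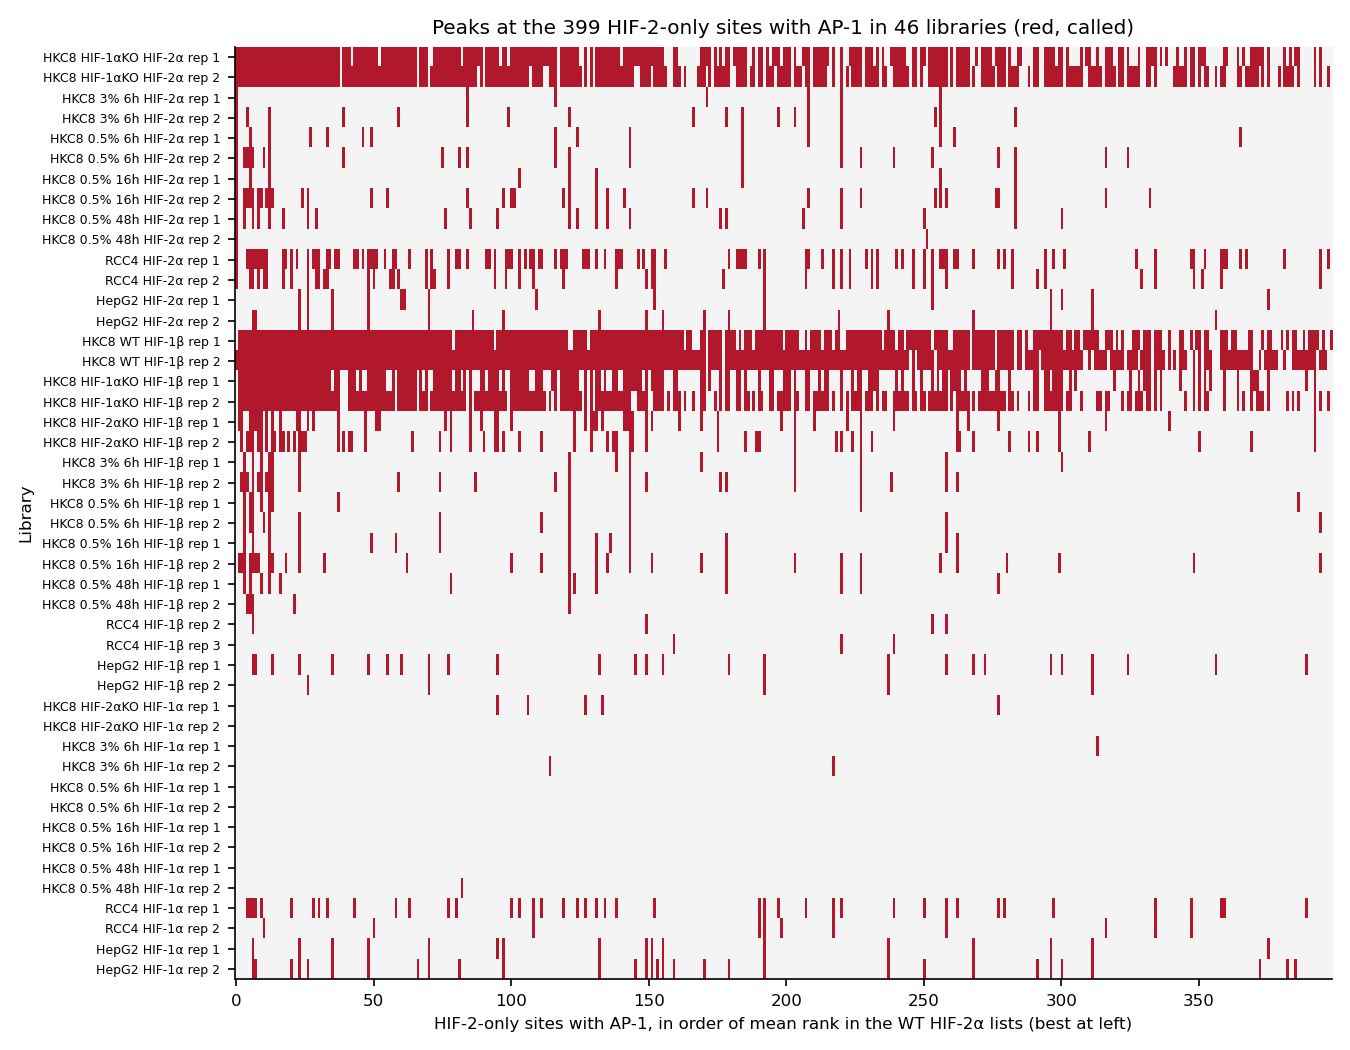
Presence of a peak (red) in each of the 46 libraries (rows, grouped by antibody) at each of the 399 HIF-2-only sites with AP-1 (columns, in order of mean rank in the WT HIF-2α lists). The HIF-1aKO HIF-2α, WT HIF-1β and HIF-1aKO HIF-1β rows are densely filled, most of all at the left, and the HKC8 HIF-1α rows are nearly empty.

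The severity and duration experiment asked how oxygen level and time change binding. Its lists recovered few of the sites. The 8 HIF-2α libraries covered 0.501 to 9.02% of the 399 sites (median 4.26%), the 8 HIF-1β libraries 1.25 to 7.77% (median 3.38%) and the 8 HIF-1α libraries 0 to 0.501% (median 0%). For HIF-2α the shares were 1.75 and 4.51% at 3% for 6 h, 4.01 and 5.76% at 0.5% for 6 h, 2.26 and 9.02% at 0.5% for 16 h, and 5.76 and 0.501% at 0.5% for 48 h. The last value comes from a library with 237 peaks, the shortest list of the series. The cells at 0.5% for 16 h had the same oxygen and time as the wild-type cells of the knockout experiment, whose HIF-2α lists of 4523 and 6736 peaks set the choice, against 1191 and 1050 here. The part of list length in the low recovery was not tested.

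Called in both replicates, HIF-2α was at 5 of the 399 sites at 3% for 6 h (1.25%; 1.65% of all HIF-2-only sites), at 7 at 0.5% for 6 h (1.75%; 2.70% of all), at 7 at 16 h (1.75%; 2.96% of all) and at 1 at 48 h (0.251%; 0.380% of all). HIF-1β was at 11 (2.76%; 1.48% of all), 6 (1.5%; 0.760% of all), 9 (2.26%; 2.15% of all) and 2 (0.501%; 0.338% of all) in the same order. HIF-1α was in both replicates of none of the 4 conditions, and of all HIF-2-only sites the shares were 0, 0, 0.0845 and 0% at 3% for 6 h and 0.5% for 6, 16 and 48 h. A HIF-2α peak in at least 1 of the 8 libraries was found at 68 sites (17%; 16.3% of all), and a HIF-1α peak in at least 1 at 4 (1.00%; 0.803% of all). In 331 sites no HIF-2α library of this experiment had a call, in 39 there was 1, and 1 site, nearest to ROBO2, had all 8.

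No difference with oxygen level or time could be told from the spread between libraries. With labels permuted within antibody, the share of the 399 sites called was 0.0627 percentage points higher at 3% than at 0.5% after 6 h (3.95% against 3.88%, adjusted p = 1, exact permutation test), 1.75 points higher at 16 h than at 6 h (5.64% against 3.88%, exact permutation test, adjusted p = 0.486) and -2.94 points apart at 48 h against 16 h (2.69% against 5.64%, exact permutation test, adjusted p = 0.444). The smallest p these tests could reach was 0.0556, so none could pass the threshold of 0.05, and each of the 3 directions turned under another setting. Without replicate 2 of HIF-2α at 3%, for instance, the first difference was -0.627 points.

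RCC4 cells have HIF without hypoxia. Their HIF-2α lists, of 4311 and 2973 peaks, found a larger share of the sites than those of the HKC8 severity experiment, of 237 to 1485 peaks, and the part of list length in this was not tested. HIF-2α was called at 28.3 and 13% of the 399 sites in RCC4 replicates 1 and 2 and HIF-1α at 10.8 and 2.76%, so that both HIF-2α libraries lay above both HIF-1α libraries. In both replicates HIF-2α was at 43 sites (10.8%, interval 7.91 to 14.2%; 9.38% of all HIF-2-only sites) and HIF-1α at 7 (1.75%; 1.10% of all). HIF-2α in both and HIF-1α in neither was found at 22 sites (5.51%; 4.35% of all), and the reverse at none (0.0845% of all). The RCC4 HIF-1β lists, of 908 and 1305 peaks, covered 4 and 3 sites (1.00 and 0.752%), against 1.69 and 1.23% of all HIF-2-only sites. None was in both (0.591% of all). At least 1 RCC4 library called 129 sites (32.3%, interval 27.8 to 37.2%; 27.5% of all).

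In HepG2 the lists did not separate the isoforms at these sites. The libraries labelled HIF-2α covered 3.76 and 5.26% of the 399 sites, those labelled HIF-1α 4.26 and 7.77%, and those labelled HIF-1β 6.77 and 1.25%. The labels of the HepG2 HIF-α libraries go against the replicates. The share of peaks within 1 kb of a start was 20.1 and 18.3% for HIF-1α and 6.26 and 5.80% for HIF-2α in WT HKC8 cells, and 39.0 and 16.2% against 9.49 and 5.08% in RCC4. In HepG2 it was 6.73 and 28.7% in replicates 1 and 2 labelled HIF-1α and 30.6 and 8.08% in those labelled HIF-2α. Directions between isoforms are therefore also given without HepG2. In both replicates the HIF-1α label gave 15 sites (3.76%; 2.41% of all HIF-2-only sites), the HIF-2α label 8 (2.01%; 1.86% of all) and HIF-1β 4 (1.00%; 1.77% of all). At least 1 HepG2 library called 48 sites (12%; 9.38% of all), and 19 sites (4.76%; 4.14% of all) were called in both RCC4 and HepG2. Outside the knockout experiment 201 sites (50.4%, interval 45.4 to 55.4%) had at least 1 call, against 42.8% of all HIF-2-only sites.

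**Figure D5:**
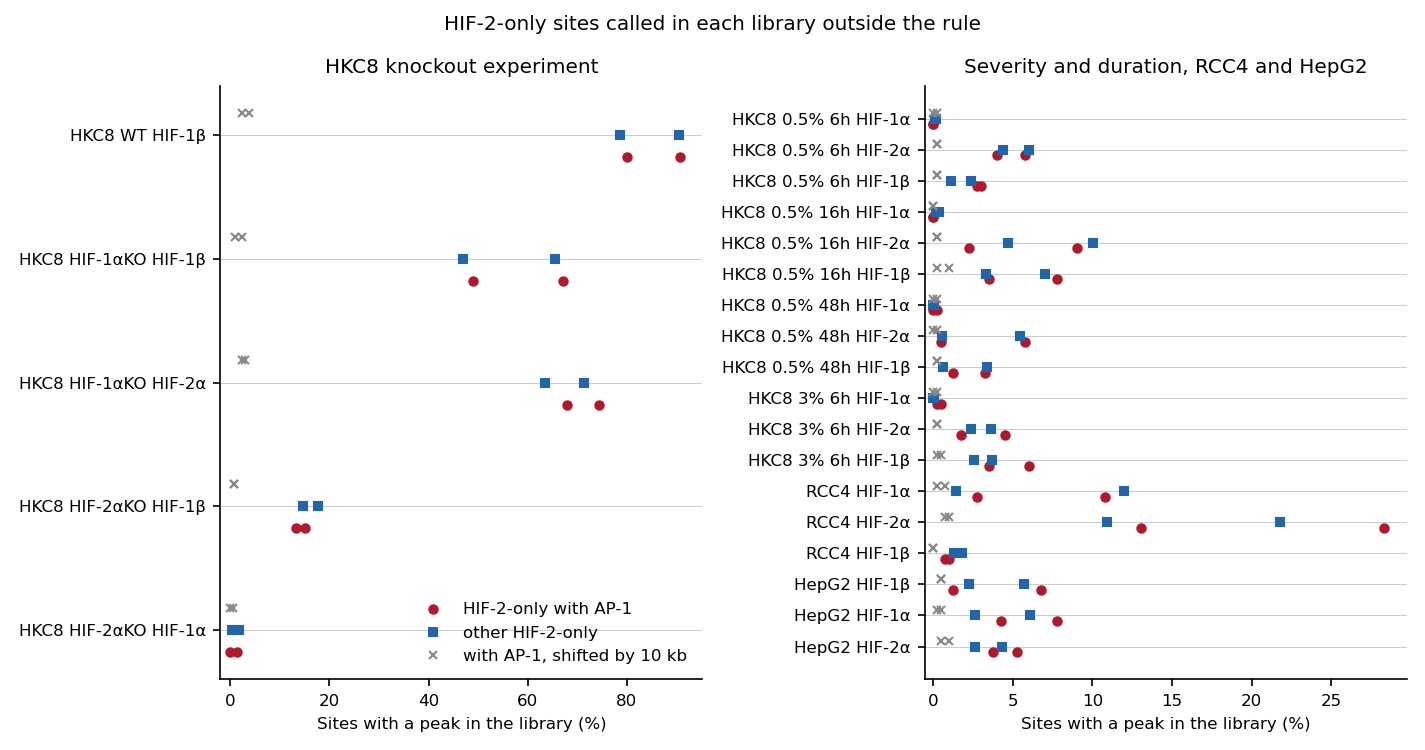
Share of sites with a peak (in %) in each of the 46 libraries that took no part in the choice, 2 points per group, for the 399 HIF-2-only sites with AP-1 (red circles), the 1968 other HIF-2-only sites (blue squares) and the 399 sites shifted by 10 kb (grey crosses). Red and blue points lie close together in most groups, and the widest gap is in RCC4 HIF-2α, at 28.3 against 21.7% and 13 against 10.9%.

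Calls of HIF-1α at these sites were counted again in libraries that the choice did not use. A missing call does not show that HIF-1α was absent, since the site may lie just under the caller's limit. Over the 6 conditions with both antibodies outside the knockout experiment, HIF-2α was called at a mean of 7.0% of the 399 sites and HIF-1α at 2.21%, a difference of 4.78 percentage points (exact permutation test with antibody labels permuted within condition, two-sided, p = 0.00313, adjusted p = 0.0313 over 10 tests). Both HIF-2α libraries lay above both HIF-1α libraries in 5 of the 6 conditions, by 2.76 to 13.9 points between means, and the exception was HepG2, where the difference was -1.5 points. The other HIF-2-only sites had means of 6.40 and 1.93% and a difference of 4.48 points, so the 4.78 points do not set the sites with AP-1 apart. Without HepG2 the difference at the 399 sites was 6.04 points (exact permutation test, adjusted p = 0.00257), against 5.55 at the others. With lists of equal length it was 1.00 point (exact permutation test, adjusted p = 0.00129). The call was lost under several settings. The adjusted p of the exact permutation test was 0.171 with a score of at least 100, 0.0562 with windows of 250 bp, 0.0732 with a replicate block, and 0.625 or 0.312 with every replicate 1 or every replicate 2 left out, which leaves 1 library per group. It also rests on few libraries. Without a single 0.5% 16 h HIF-1α replicate the adjusted p of the exact permutation test was 0.0836 for either, without 48 h HIF-1α replicate 1 or 2 it was 0.0622 or 0.0574, and without 48 h HIF-2α replicate 1 it was 0.0540. Without RCC4 HIF-1α replicate 1 or 2 it was 0.110 or 0.222 in the exact permutation test, without RCC4 HIF-2α replicate 1 it was 0.121, and without HepG2 HIF-1α replicate 1 or HIF-2α replicate 2 it was 0.104 or 0.0694. The difference itself stayed between 3.51 and 5.45 points in these.

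The AP-1 heptamer made no difference to recovery that the tests could tell from the spread. Over 7 conditions HIF-2α was called at 16.2% of the 399 sites and 15.1% of the other HIF-2-only sites, 1.04 points more (exact permutation test with signs flipped per condition, two-sided, adjusted p = 0.476), and with lists of equal length the difference was -0.336 points. For HIF-1β over 8 conditions the means were 20.5 and 19.8%, 0.659 points more (exact permutation test, p = 0.0547, adjusted p = 0.222). HIF-2aKO cells were left out of this test since they lack HIF-2α, and their HIF-1β gaps were -4.40 and 0.403 points in replicates 1 and 2. For HIF-1α over 7 conditions the means were 1.99 and 1.81%, 0.18 points more (exact permutation test, adjusted p = 0.781). In RCC4 HIF-2α the gaps were 6.57 and 2.11 points in replicates 1 and 2, in HIF-1aKO HIF-2α 4.45 and 3.04, and in the 0.5% 16 h HIF-2α libraries -2.47 and -0.988.

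The share of recovered sites that had AP-1 was also compared between the lines. Of the HIF-2-only sites that a HIF-2α library found again, 20.9 and 19.5% had the heptamer in RCC4, 22.4 and 19.8% in HepG2, and 8.82 to 20% in the 8 HKC8 severity libraries. The means were 20.2% in RCC4 and 15.3% in HKC8, a difference of 4.91 points (exact permutation test over libraries, adjusted p = 0.333), and 21.1% in HepG2, 5.83 points above HKC8 (exact permutation test, adjusted p = 0.222). Neither passed the threshold, and both sizes moved with the settings. The RCC4 difference ran from 2.69 points without replicate 1 to 11.7 over the whole site, and was 9.47 with windows of 250 bp. The HepG2 difference ran from 0.620 with lists of equal length to 9.70 with 250 bp, and rests on libraries whose labels go against each other.

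Among single sites, the one in an intron of ROBO2, a receptor for axon guidance cues, stood out by its antibodies. It had the best mean rank of the 399 in the WT HIF-2α lists, with ranks of 72 and 279. HIF-2α was called there in all 8 severity and duration libraries, ranking 1 of 551 and 9 of 966 peaks at 3% for 6 h. At 0.5% oxygen the ranks were 4 and 16 after 6 h, 30 and 29 after 16 h, then 44 and 14 after 48 h. It was called in both HIF-1aKO replicates (ranks 478 and 942) and both RCC4 replicates (ranks 233 and 121), but in neither HepG2 library. HIF-1β was called in 1 of 18 libraries, WT replicate 2, at rank 6213 of 8268, and HIF-1α in none of 14. Its window holds no HRE core, and part of it is made of copies of a short repeated stretch. So the best-ranked HIF-2α site of the 399 was nearly without a HIF-1β call. The 4 that follow it in rank, nearest to LSAMP, MAP2K6, SHISAL1 and PISD, had HIF-1β in 6, 8, 11 and 7 of the 18. The site nearest to TANGO6, just outside the limit of the search, resembled ROBO2, with HIF-2α in 8 of 14 libraries and HIF-1β in none of 18.

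SHISAL1 and CRISPLD2 show the opposite, with HIF-2α and HIF-1β together. At SHISAL1, whose window has 3 HRE cores, the HIF-1aKO ranks were 211 and 176 for HIF-2α and 200 and 116 for HIF-1β. At CRISPLD2, which encodes a secreted protein and has the site in its own intron, they were 174 and 129 for HIF-2α and 204 and 129 for HIF-1β. Neither had a HIF-1β call in HIF-2aKO cells. MAP2K6, a kinase that activates p38, was different, with HIF-1β called in both HIF-2aKO replicates (ranks 701 and 342), and so were TXNDC5, an endoplasmic reticulum disulfide isomerase (ranks 1475 and 431), and CCN5, a matrix-associated signalling protein (ranks 1501 and 617). HIF-1α was not called in HIF-2aKO cells at any of these.

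The site found in the most other libraries, 26 of 46, lay 19.3 kb upstream of APOH, a plasma apolipoprotein. It was called in 8 of 14 HIF-2α, 3 of 14 HIF-1α and 15 of 18 HIF-1β libraries, and in both RCC4 HIF-2α replicates it was among the strong peaks (ranks 283 and 180). CCN5 followed with 20 libraries, CRISPLD2 with 19, and TXNDC5 and PCBP3, a poly(C)-binding protein, with 18 each. The median of the 399 was 6 of 46, as it was for the other HIF-2-only sites, and 7 of the 399 (1.75%) were called in no other library, against 3.25% of the others.

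HIF-1α calls at the 399 sites outside the WT libraries were rare, and 319 sites (79.9%) had none in 14 libraries, against 81.7% of the other HIF-2-only sites. The most, 4, were at a site in an intron of RB1CC1, an autophagy protein, where all HIF-1α and HIF-2α libraries of RCC4 and HepG2 had a peak but no HIF-1aKO library did. APOH and SRGAP1 followed with 3, and 24 sites had 2, of which TOMM20 and UPP1 ranked best in the WT lists. At SRGAP1 HIF-1α was called in both RCC4 replicates (ranks 1913 and 615) and at 3% for 6 h (rank 77 of 652). At UPP1, which encodes a uridine phosphorylase, RCC4 HIF-1α was called in replicate 1 at rank 588 and HIF-2α in both at ranks 328 and 350.

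By nearest gene, the 399 sites touched 379 genes, of which 360 had 1 site, 18 had 2 and S100A10, a partner of annexin A2, had 3 within 17.7 kb. S100A10 was named here after its count was seen. Genes of 7 lists were counted. AP-1 subunits and related factors were nearest to 3 of the 399 sites (0.752%) and 11 of the 1968 others (0.559%), the hypoxia response list to 1 (0.251%) and 16 (0.813%), named HIF-2 targets to 1 (0.251%) and 10 (0.508%), and matrix, integrin and protease genes to 5 (1.25%) and 29 (1.47%). Actin and junction genes were nearest to 6 (1.5%) and 16 (0.813%), growth factor signalling genes to 5 (1.25%) and 32 (1.63%), and kidney lineage factors to none and 12 (0.610%).

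The AP-1 genes themselves were JUN, FOSL2 and MAF. The JUN site lay 99.5 kb upstream, with 3 bp between heptamer and HRE core, and was called by HIF-2α in both HIF-1aKO replicates (ranks 1012 and 801), both RCC4 replicates (ranks 1047 and 578), at 0.5% for 6 h in replicate 2 and in the HepG2 library labelled HIF-2α replicate 1. No library labelled HIF-1α had a call there, but the HepG2 library just named has the promoter share of HIF-1α libraries, so with its label turned there would be 1. The FOSL2 site, in an intron of BABAM2 and 118 kb from FOSL2, was called by HIF-2α in both HIF-1aKO replicates and in RCC4 replicate 1. The MAF site, 406 kb away, was called in 3 other libraries only.

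Among matrix genes, the site 27.9 kb upstream of ITGA3, the integrin α3 subunit, was called in 18 other libraries, 10 of them HIF-2α. It ranked 119 of 4311 peaks in RCC4 HIF-2α replicate 1, where HIF-1α replicate 1 also called it, at rank 1105. Its WT HIF-2α call was weak in replicate 1, at rank 4317 of 4523, and ranked 1213 of 6736 in replicate 2. The site of PLAU, the urokinase protease, was the only one of the 3 named here that lay near a promoter, 0.179 kb inside the gene. As a percentage of each list from the top, HIF-1β ranked at 16.9 and 7.22% there in WT cells and at 20.1 and 18.7% in HIF-2aKO cells, and HIF-2α at 68.8 and 45.5% in WT cells. HIF-1α was called in none of 14 libraries. COL6A3, a collagen VI chain, had HIF-2α in both RCC4 replicates at ranks 298 and 200.

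Among growth factor genes, the site in an intron of AXL, a receptor tyrosine kinase, was called by HIF-2α in 8 of 14 libraries, at rank 49 of 551 at 3% for 6 h in replicate 1, and by HIF-1α in none. SMAD3, which carries transforming growth factor β signals, had HIF-2α in both HIF-1aKO and both RCC4 replicates. The site 81.9 kb downstream of the EGFR start, which also stands for the named HIF-2 targets, and the site nearest to STC1, a secreted hormone of the hypoxia list, were called outside the WT HIF-α libraries only in the knockout experiment, in 7 libraries each. Of the actin and junction sites, the most widely called, in an intron of S100A10, was found in 10 libraries, and that of MYO1E, a myosin, in 6.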

How the data were processed

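ChIP-seq with antibodies to HIF-1α, HIF-2α or HIF-1β was done in 50 libraries, in 25 groups of 2 taken from the sample labels, and 16 input samples were not analysed here. Per the labels and the study's methods, the authors used Trim Galore 0.3.3, BWA 0.7.5a-r405 on GRCh37 (hg19), SAMtools 0.1.19, bedtools 2.17.0, Picard 1.106 and MACS against control, and called peaks in each library by itself. The methods also name T-PIC as a second caller, with only peaks of both callers above a background percentile kept. The deposited peaks are named by MACS and numbered without gaps, so neither step can be seen in them. The deposited value of each peak is a score, lowest at 50, which the authors' caller wrote. It was used here for ordering and thresholding the peaks of single lists. Depth is not in the lists, so a longer list can reflect a deeper library.

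The 294 peaks outside chromosomes 1 to 22, X and Y were left out. Overlap was at least 1 bp. Motifs were searched in 201 bp windows, with windows at 2 kb as control, and overlaps were compared with sites shifted by 10 kb. Starts came from GENCODE 44 mapped to GRCh37. Shares per library were compared by two-sided exact permutation tests, adjusted over 10 tests by Benjamini-Hochberg, with a threshold of 0.05. Scripts ran in Python 3.11.15 with numpy 2.4.6, scipy 1.17.1, pysam 0.24.0 and matplotlib 3.10.9, and the searches and tests were tested on simulated data. Named sites were the 5 best by WT rank, the 5 called in most other libraries, the 5 called in most HIF-1α libraries, up to 3 per gene list by number of libraries, and the 3 best-ranked of the 4 with most heptamers. Ties went to the better WT rank. No sequence was printed for sites on chromosome 8. The sites, gene lists and tests were chosen with earlier results of these data known.

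Alternatives were windows of 50 and 250 bp or the whole site, overlap of 50%, a score of at least 100, lists of equal length, no WT HIF-1α peak within 1 kb, sites with an HRE as the comparison, HepG2 left out, a replicate block, each replicate left out and, added after seeing the data, each library left out.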

Additional observations from a re-analysis of the deposited data

How the results depend on the processing

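Of 225 recomputed tests, 192 kept their direction and side of the threshold. This count includes the tests of oxygen, time and HIF-1β in the knockouts, whose side was fixed because they could not pass. The only test that passed, HIF-2α against HIF-1α, kept its call in 20 alternatives and lost it in 15. The number of sites depended on the window, with 196 at 50 bp, 744 at 250 bp and 1072 over the whole site, was 233 with a score of at least 100, and was 525 or 1046 when 1 replicate alone chose them. HIF-2α against HIF-1α differed by 4.57 points with 250 bp (exact permutation test, adjusted p = 0.0562), by 3.79 with a score of at least 100 (exact permutation test, adjusted p = 0.171) and by 3.51 to 6.06 with a replicate or library left out. With the antibody labels permuted within replicate number, a replicate block, the 4.78 points had an adjusted p of 0.0732 in the exact permutation test. Whether the numbers pair the libraries cannot be told here. The replicate differences of HIF-2α and HIF-1α over sites correlated at 0 to 0.251 in the 6 conditions, with the highest value in RCC4. In the HKC8 conditions HIF-1α was called at too few sites for a low correlation to exclude pairing. The block changed no other call. Recovery of the sites against the other HIF-2-only sites reversed with lists of equal length for HIF-2α (-0.336 points) and HIF-1β (-0.257), and against sites with an HRE and no AP-1 for HIF-1β (-0.924) and HIF-1α (-0.270). For HIF-1α it also reversed with 50 bp (-0.136) and without HepG2 (-0.0646), and was -0.0832 to 0.442 with a replicate or library left out. For 3% against 0.5% oxygen it was -0.202 with 250 bp, -0.396 over the whole site, -0.751 with a score of at least 100, -0.125 with lists of equal length and -0.752 to 0.877 with a replicate or library left out. Such omissions gave -0.501 to 4.01 for 16 h against 6 h and -7.52 to 1.63 for 48 h against 16 h. Left-out libraries were added after seeing the data, and the causes were not tested. The lists give no depth, so sites without a call cannot be told from sites under the caller's limit.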
